A study of Mus musculus with 8 samples.

Results

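The genes described are the mitochondrially encoded RNAs of the mouse, taken as every row of the count table whose GENCODE M21 symbol begins with mt- and which lies on chromosome M. The rule found 37 of the 55450 genes in the table, namely 13 mRNAs, 2 rRNAs and 22 tRNAs. Of these, 28 are read from the heavy-strand promoter (plus strand of the annotation) and 9 from the light-strand promoter (minus strand). The 9 are mt-Nd6 and 8 tRNAs. The rule uses names and no measured value. The filter on low counts passed 15 of the 37, namely the 13 mRNAs and 2 rRNAs, and 0 of the 22 tRNAs.

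The libraries come from RAW264.7, a macrophage-like tumour line of the mouse. Its cells carried a non-silencing control shRNA (shNS) or an shRNA (shDis3l2) to Dis3l2, which encodes a ribonuclease that degrades uridylated RNA. The cells were kept for 4 days with 1 µg/mL doxycycline (3 libraries of each line) or without it (1 library of each line). All 8 libraries are thus from shRNA lines on the same RAW264.7 background, and the labels do not say whether a line is 1 clone or whether replicates were separate cultures. The p-values measure only the spread between these libraries, which may be technical.

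Mammalian mitochondria transcribe both strands of a small circular genome as long precursors, from which RNAs are released mostly by cutting out the tRNAs between them. The heavy-strand precursor yields both rRNAs, most tRNAs and nearly all mRNAs. The light-strand precursor yields mt-Nd6 and a few tRNAs, and most of the remainder is non-coding and quickly degraded. The mRNAs encode core subunits of the respiratory chain and ATP synthase. Doxycycline, used to switch shRNAs on, is an antibiotic that also binds mitochondrial ribosomes.

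Library totals ran from 30341823 to 45557804 counts. All 9 macrophage markers were detected, and the 4 epithelial markers (Epcam, Krt8, Krt18, Cdh1) had 0 counts in every library. Of 5 fibroblast markers, 1 reached 1 CPM in at least 1 library, and 0 of the T cell, B cell and endothelial markers did. Dis3l2 was at 33, 28.7 and 22 CPM (counts scaled to library size by TMM) in shNS with doxycycline against 12, 13.5 and 14.9 in shDis3l2, and at 29.7 and 28.6 CPM without doxycycline. Its call (log2 fold change -1.05, SE 0.19, edgeR adjusted p = 0.0216) was lost without shDis3l2 replicate 1, 2 or 3 (edgeR adjusted p = 0.0814, 0.112 and 0.0776).

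Mitochondrial genes took 3.59, 2.94 and 3.00% of all counts in shNS replicates 1 to 3 with doxycycline and 3.89, 2.87 and 2.65% in shDis3l2. Without doxycycline the share was 2.69% in shNS and 2.95% in shDis3l2. The groups overlapped, with 3.18 ± 0.362% in shNS and 3.14 ± 0.663% in shDis3l2 (SD, n = 3; two-sided exact permutation p = 0.90, where the smallest possible is 0.10). The difference of -0.04 percentage points became -0.42 without shDis3l2 replicate 1 and 0.21 without shDis3l2 replicate 3. It was also positive without shDis3l2 replicate 2 (0.09) or shNS replicate 1 (0.17), and -0.16 and -0.13 without shNS replicates 2 and 3. Of the share, mRNAs took 2.44 to 3.62% of all counts over the 8 libraries and rRNAs 0.182 to 0.358%. These figures are as deposited. They leave out counts given to nuclear copies of mitochondrial DNA (described below), which took 0.737 to 1.23% of all counts. With the copies added the share was 4.70, 3.95 and 3.84% in shNS and 5.12, 3.61 and 3.52% in shDis3l2 with doxycycline. Without doxycycline it was then 3.54% in shNS and 3.73% in shDis3l2. In these bulk libraries, fewer mitochondria per cell and less RNA per mitochondrion cannot be told apart.

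Among the mRNAs, 8 share at least 1 window of 100 bases with annotated copies of mitochondrial DNA in the nuclear genome, and 10 such copies were found. Of these, 7 are annotated on the minus strand of chromosome 1 between 24611535 and 24616197 (GRCm38) and 3 on chromosome 2. For mt-Co2, mt-Atp6 and mt-Co3 the copy is identical over its whole annotated length of 681, 678 and 783 bases, and it stops just short of the mitochondrial gene's end. The last bases of each pair are shown because they hold the only difference between gene and copy. Capitals mark the bases that the copy's annotation lacks. The positions on chromosome M are chrM:7649-7696, chrM:8560-8607 and chrM:9343-9390 (plus strand), and on chromosome 1 chr1:24614885-24614929, chr1:24613974-24614018 and chr1:24613189-24613235 (minus strand), all in GRCm38, from the GENCODE M21 transcripts.
mt-Co2: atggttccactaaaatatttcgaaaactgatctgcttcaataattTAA
Gm28661: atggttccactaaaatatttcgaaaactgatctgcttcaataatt
mt-Atp6: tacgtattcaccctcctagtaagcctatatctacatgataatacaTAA
Gm10925: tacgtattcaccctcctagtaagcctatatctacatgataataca
mt-Co3: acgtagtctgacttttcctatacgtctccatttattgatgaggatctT
Gm28437: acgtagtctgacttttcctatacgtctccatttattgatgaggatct

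The authors' counting divided reads between gene and copy, and most went to the copy. Between 10.5 and 27.7% of the counts shared by mt-Co2 and its copies were given to mt-Co2, 25.1 to 40.9% of those shared by mt-Atp6 and Gm10925 to mt-Atp6, and 19.1 to 47.2% of those shared by mt-Co3 and Gm28437 to mt-Co3. For mt-Nd4l, whose copy Gm10222 is identical over 294 bases, the share was 56.2 to 76.4%. For mt-Co1, mt-Nd3 and mt-Nd4 it was at least 96.6% in every library, and the copy of mt-Nd2 had 0 counts. As deposited, mt-Co2 was at 806, 358 and 583 CPM in shNS with doxycycline and at 1028, 886 and 533 CPM in shDis3l2. With the copies added it was at 4086, 3409 and 3179 CPM in shNS and at 5047, 3195 and 3153 CPM in shDis3l2. Its share of heavy-strand mRNA counts varied 2.77-fold over the 8 libraries as deposited and 1.23-fold with the copies added. For mt-Co3 the same figures were 2.40-fold and 1.19-fold, and for mt-Atp6 1.80-fold and 1.16-fold. Levels of these 3 genes and mt-Nd4l are therefore given below with the copies added, and reads from a copy and from the mitochondrial gene cannot be told apart. The other mitochondrial mRNAs and rRNAs without a copy (mt-Nd1, mt-Atp8, mt-Nd5, mt-Nd6, mt-Cytb, mt-Rnr1 and mt-Rnr2) had whole-number counts in all 8 libraries.

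**Figure D1:**
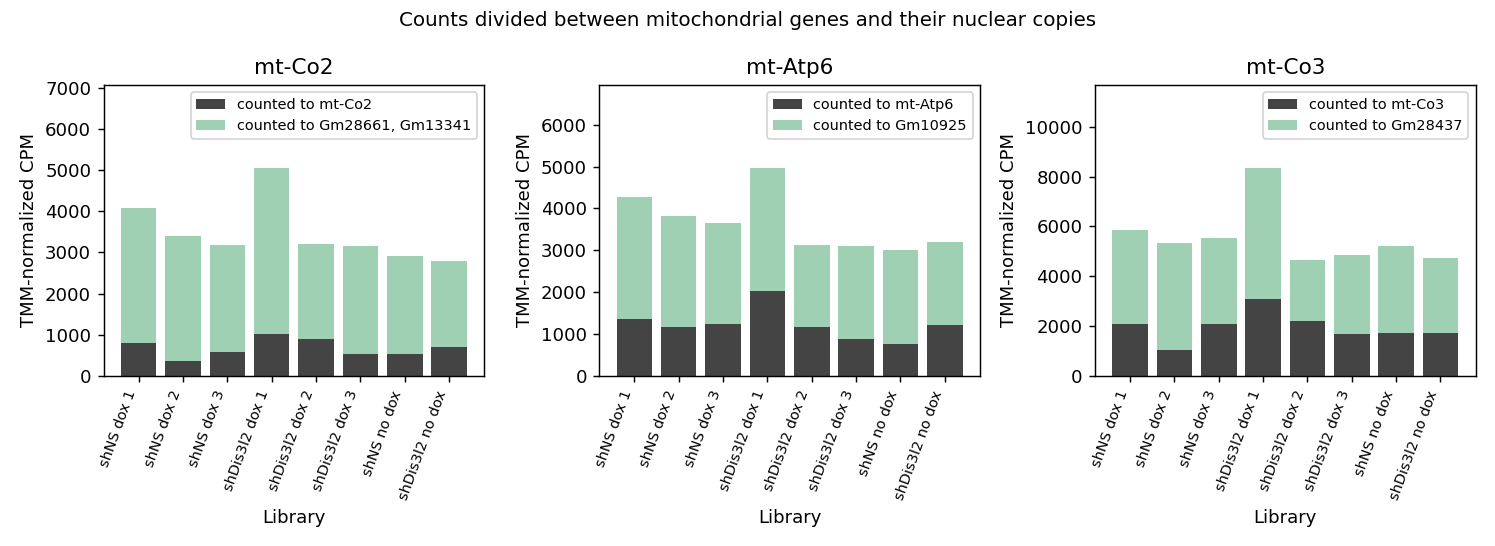
TMM-normalized CPM (y axis) of mt-Co2, mt-Atp6 and mt-Co3 in each of the 8 libraries (x axis), split into counts given to the mitochondrial gene (dark) and to its nuclear copies (light). The dark part of mt-Co2 ranges from 358 to 1028 CPM while the whole bar ranges from 2798 to 5047 CPM, and the bar of shDis3l2 replicate 1 with doxycycline is the highest in each panel.

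Neighbouring genes overlap as well. mt-Atp8 and mt-Atp6 are 2 subunits of ATP synthase read from 1 mRNA, and they share 43 bases. The last 60 bases of mt-Atp8 (chrM:7910-7969, plus strand) are shown with the shared bases in capitals.
mt-Atp8: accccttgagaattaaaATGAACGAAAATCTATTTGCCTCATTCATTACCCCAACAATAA
mt-Nd4l and mt-Nd4 share 7 bases on the same strand. mt-Nd5 and mt-Nd6 converge from opposite strands and share 14 bases, which are shown in capitals at the end of each gene (chrM:13552-13599 on the minus strand for mt-Nd6 and chrM:13518-13565 on the plus strand for mt-Nd5). The capitals of the pair are reverse complements of each other.
mt-Nd6: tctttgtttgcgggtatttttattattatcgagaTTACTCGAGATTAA
mt-Nd5: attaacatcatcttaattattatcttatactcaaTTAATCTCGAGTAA
The library kit marks strand, but the strand setting of the authors' counting is not given in the sources used here. If strand was not used, heavy-strand RNA running across mt-Nd6 would be counted to it and cannot be told apart.

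Levels between genes were compared per kilobase of transcript (CPM per kb, copies added), as mean ± SD over all 8 libraries. With the copies added, the subunits of cytochrome c oxidase and mt-Atp6 of ATP synthase were the most abundant. mt-Co1, the catalytic subunit of cytochrome c oxidase, stood at 8859 ± 1496 CPM per kb. The other 2 oxidase subunits, mt-Co3 and mt-Co2, were at 7101 ± 1524 and 5078 ± 1089, and the proton-channel subunit mt-Atp6 at 5349 ± 1014. mt-Co1 was above mt-Co3 in 8 of 8 libraries and mt-Co3 above mt-Atp6 in 8 of 8. mt-Atp6 was above mt-Co2 in 5 of 8, so the last pair did not separate. The places of mt-Co3, mt-Atp6 and mt-Co2 rest on adding the copies. As deposited they ranged from 1306 to 3919, 1110 to 2985 and 524 to 1503 CPM per kb. mt-Nd1, which has no copy, ranged from 1869 to 2971.

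A middle range of levels followed, again per kilobase, made up mostly of complex I subunits. mt-Nd1 stood at 2341 ± 400 CPM per kb, mt-Cytb of complex III at 2222 ± 470, mt-Nd3 at 1775 ± 496 and mt-Nd4 at 1726 ± 253 (SD, n = 8). mt-Atp8 was at 1297 ± 286, mt-Nd2 at 1143 ± 182, mt-Nd5 at 927 ± 128 and mt-Nd4l at 786 ± 153. mt-Nd1 was above mt-Cytb in 6 of 8 libraries and mt-Nd3 above mt-Nd4 in 4 of 8, so these neighbours did not separate. mt-Nd5 was above mt-Nd4l in 8 of 8. mt-Atp8 and mt-Atp6 are read from the same mRNA, so their gap (1297 against 5349 CPM per kb) cannot be read as a difference between mRNAs. mt-Atp8 (204 bases) and mt-Nd4l (297 bases) are the shortest counted members, and each overlaps a neighbour. Whether dividing by full length understates such genes was not tested. Their places in this order therefore describe counts and not amounts of mRNA.

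The rRNAs of the small and large mitochondrial ribosomal subunits, mt-Rnr1 and mt-Rnr2, were at 1479 ± 336 and 699 ± 132 CPM per kb (SD, n = 8). The kit removes ribosomal RNA, so these are the levels left after depletion and cannot be read as amounts in the cell. mt-Nd6, a complex I subunit and the only mRNA of the light strand, was the lowest of the 15 at 168 ± 35.5 CPM per kb. Its highest level (213, shDis3l2 without doxycycline) lay below the lowest of every other member. Its convergent neighbour mt-Nd5 was 3.71 to 7.79 times as abundant per kilobase within a library, and mt-Co1 41.2 to 91.6 times.

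**Figure D2:**
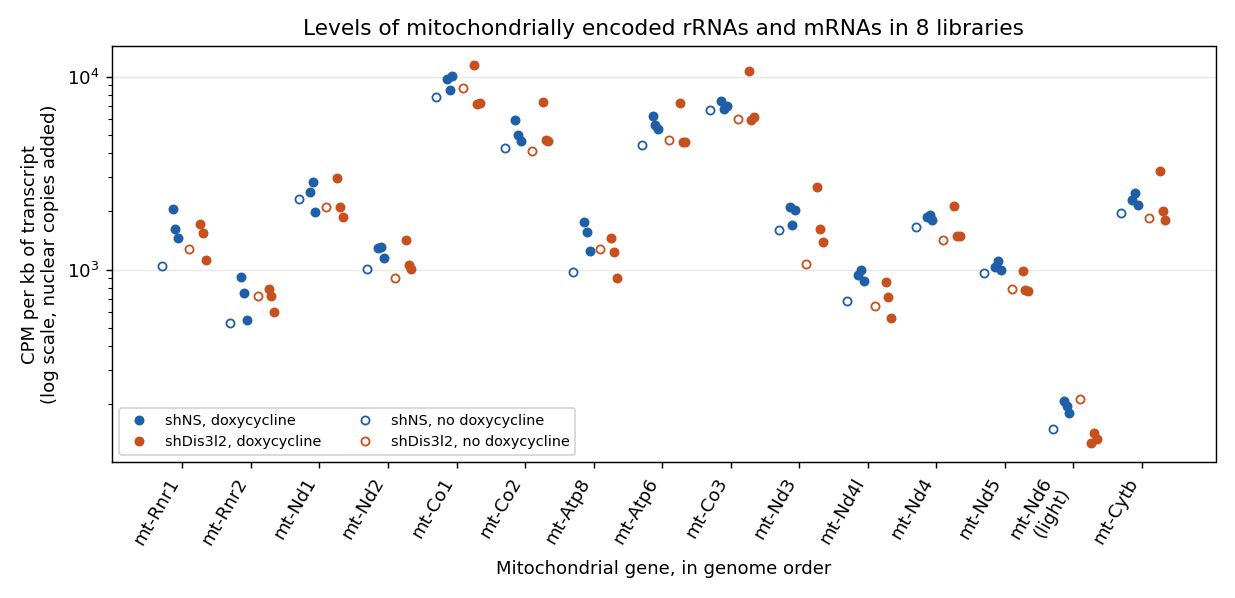
Level of each of the 15 counted members in CPM per kb of transcript (y axis, log scale, nuclear copies added), in genome order (x axis). Each point is 1 library, blue for shNS and orange for shDis3l2, filled with doxycycline and open without. mt-Nd6 lies at 126 to 213 CPM per kb, below all other members, and its open orange point (213) lies above the filled orange points (126 to 142).

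The tRNAs were all but absent from the table. The 22 rows held 1 count in the 8 libraries together, in mt-Tl1 in shDis3l2 replicate 3 with doxycycline. The other 21 were at 0, which allows a level of up to 0.0659 to 0.0989 CPM per library from 3 counts (counting error only). mt-Tl1, a leucine tRNA next to mt-Rnr2 (chrM:2676-2750, plus strand), and mt-Te, the glutamate tRNA that adjoins the start of mt-Nd6 on the same strand (chrM:14071-14139, minus strand), are shown whole as examples of the length involved.
mt-Tl1: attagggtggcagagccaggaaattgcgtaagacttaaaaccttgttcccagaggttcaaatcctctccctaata
mt-Te: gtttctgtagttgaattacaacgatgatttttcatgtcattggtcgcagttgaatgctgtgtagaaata
The tRNA genes are 59 to 75 bases long, and the shortest member that was counted, mt-Atp8, is 204 bases. Of 1003 other genes of at most 75 bases in the table, 10 had any count (0.997%), against 343 of 2969 genes of 151 to 300 bases (11.6%). No ratio of tRNA to mRNA could be formed, and the table gives no reading of mitochondrial tRNA levels.

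Comparing the lines under doxycycline asks what differed where Dis3l2 was lower. Of the 15 members tested, 1 was called by edgeR's quasi-likelihood test, mt-Nd6, and it was lower in shDis3l2. Over all 13752 genes tested, 6.14% were called and 4.01% were called lower. mt-Nd6 stood at 109, 102 and 93.6 CPM in shNS replicates 1 to 3 and at 65.2, 73.6 and 68.6 CPM in the shDis3l2 replicates. Every shDis3l2 value lay below every shNS value. The means were 101.4 ± 7.50 and 69.1 ± 4.22 CPM (SD, n = 3), and mt-Nd6 fell by 0.55 on the log2 scale (SE 0.12, edgeR adjusted p = 0.0465).

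The call of mt-Nd6 sat at the threshold. Its direction was the same in all 17 fits, with log2 fold changes from -0.61 to -0.47 and an unadjusted p of at most 0.0192, but it was called in only 4 of the 16 alternatives. The edgeR adjusted p was 0.0818, 0.0888 and 0.0520 without shNS replicate 1, 2 or 3 and 0.0980, 0.185 and 0.213 without shDis3l2 replicate 1, 2 or 3. With the nuclear copies of the other genes added it was 0.0557, and no member was then called, against 6.11% of all genes.

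No heavy-strand member was called. As deposited, the other 14 had log2 fold changes between -0.35 (mt-Atp8, SE 0.22) and 0.49 (mt-Co2, SE 0.35) with edgeR adjusted p of at least 0.348, 0 of them at an unadjusted p under 0.05 (20.8% of all genes were). DESeq2 and limma-voom also called mt-Nd6 alone. The median over the 15 members was -0.10, against -0.0023 over all genes tested, and 4 were positive. That median was 0.06 without shDis3l2 replicate 3, with 10 positive. Without shDis3l2 replicate 1 it was -0.31, with 2 positive and 4 at an unadjusted p under 0.05. With the copies added, the positive values of mt-Co2 and mt-Co3 shrank from 0.49 to 0.11 and from 0.42 to 0.11, mt-Atp6 went from 0.12 to -0.05, and mt-Nd4l went from -0.12 to -0.37 (SE 0.18, edgeR adjusted p = 0.281).

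**Figure D3:**
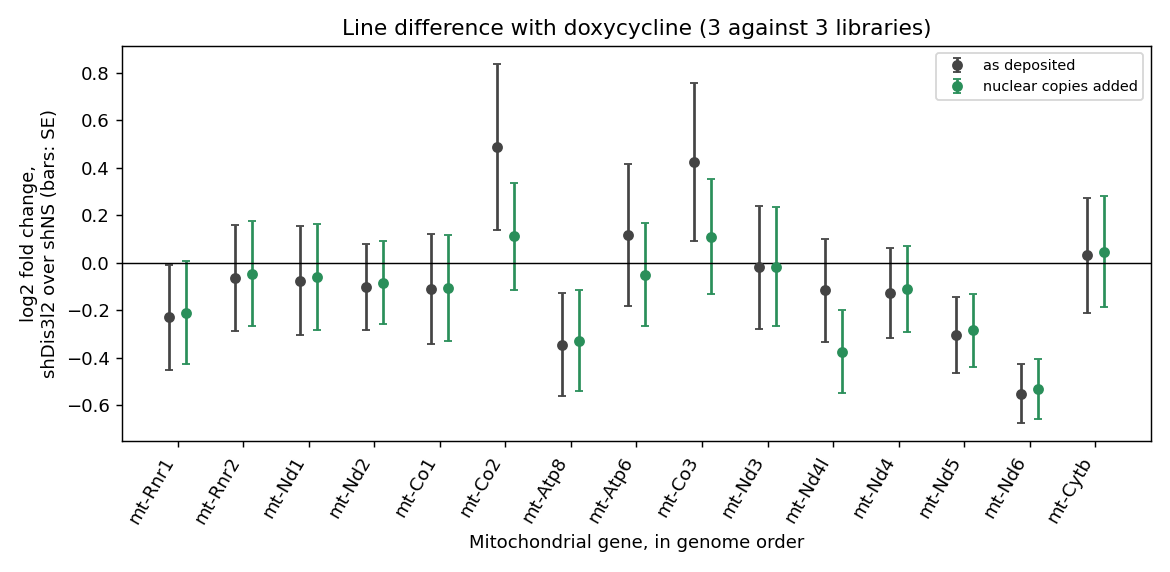
Log2 fold change of shDis3l2 over shNS with doxycycline (y axis; bars are SE, 3 libraries against 3) for the 15 counted members in genome order (x axis), as deposited (grey) and with the counts of nuclear copies added (green). mt-Nd6 is lowest at -0.55 and -0.53. mt-Co2 and mt-Co3 move from 0.49 and 0.42 to 0.11 when the copies are added.

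The complex I subunits on the heavy strand varied among themselves. mt-Nd5 was at 1869, 2029 and 1811 CPM in shNS and at 1784, 1420 and 1418 CPM in shDis3l2. These groups did not overlap either, yet the difference did not pass (log2 fold change -0.30, SE 0.16, edgeR adjusted p = 0.348). mt-Nd6 and mt-Nd5 were the 2 of 15 members with non-overlapping groups, both lower in shDis3l2, against 14.6% of all genes tested that lay lower and 13.2% that lay higher without overlap. With the copies added mt-Nd4l was a further one, at 278, 296 and 260 CPM in shNS and 255, 214 and 166 CPM in shDis3l2. Its log2 fold change was then -0.37 (SE 0.18). For mt-Nd4, which shares 7 bases with mt-Nd4l on the same strand, the groups overlapped. The log2 fold change of mt-Nd4 was -0.11 (SE 0.18) with the copies added. mt-Nd1 was at 2407, 2709 and 1904 CPM in shNS and at 2843, 2026 and 1789 CPM in shDis3l2, with wide overlap. mt-Nd4 was at 2578, 2629 and 2497 CPM against 2946, 2058 and 2038 CPM, and mt-Nd2 at 1349, 1355 and 1186 CPM against 1480, 1094 and 1047 CPM. mt-Nd3 was at 721, 577 and 700 CPM against 929, 558 and 483 CPM as deposited. For mt-Nd1 to mt-Nd4 shDis3l2 replicate 1 lay above all shNS libraries, and replicates 2 and 3 lay below at least 2 of them.

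The same split within shDis3l2 ran through the other complexes. mt-Co1 was at 14506, 12740 and 15053 CPM in shNS with doxycycline and at 17279, 10832 and 10973 CPM in shDis3l2. mt-Cytb was at 2609, 2836 and 2466 CPM against 3708, 2306 and 2061 CPM. With copies added, mt-Co3 was at 5855, 5354 and 5522 CPM against 8343, 4660 and 4835 CPM, and mt-Atp6 at 4277, 3811 and 3653 CPM against 4966, 3124 and 3110 CPM. shDis3l2 replicate 1 was the highest of its group for 14 of the 14 heavy-strand members and the highest of all 8 libraries for 9 of them, copies added. It was the lowest of its group for mt-Nd6. mt-Atp8, which overlaps mt-Atp6 but has no copy, was at 358, 317 and 254 CPM against 297, 251 and 184 CPM.

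The rRNAs, counted after ribosomal RNA depletion, overlapped as well. mt-Rnr1 was at 1967, 1548 and 1388 CPM in shNS and at 1647, 1469 and 1064 CPM in shDis3l2, with a log2 fold change of -0.23 (SE 0.22, edgeR adjusted p = 0.631). mt-Rnr2 was at 1451, 1191 and 866 CPM against 1249, 1152 and 954 CPM, with -0.06 (SE 0.22, edgeR adjusted p = 0.914). Ratios within the mitochondrial RNAs do not depend on how libraries are scaled. For each 1000 mRNA counts as deposited, there were 111, 97.7 and 75.1 rRNA counts in shNS and 76.9, 104.7 and 86.8 in shDis3l2. The mRNA total here leaves out counts given to the nuclear copies. As log2 ratios the groups differed by -0.07 (two-sided exact permutation p = 0.80), within the spread of 0.28 (SD, n = 3) in shNS. The ratio of mt-Rnr2 to mt-Rnr1, both from the start of the heavy-strand precursor, was -0.50 ± 0.16 in shNS and -0.30 ± 0.13 in shDis3l2 on the log2 scale (SD, n = 3; exact permutation p = 0.20).

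Light against heavy strand was compared as mt-Nd6 counts for each 1000 counts of the 12 heavy-strand mRNAs, as deposited. There were 3.52, 3.66 and 3.13 in shNS with doxycycline and 1.73, 2.95 and 2.96 in shDis3l2. The shDis3l2 values all lay below the shNS values. With the copies added the values were 2.62, 2.65 and 2.40 in shNS and 1.29, 2.30 and 2.18 in shDis3l2, again without overlap. As deposited, on the log2 scale the difference was -0.47 (two-sided exact permutation p = 0.10, the smallest that 3 against 3 allows), and it was -0.22 without shDis3l2 replicate 1, the library with high heavy-strand mRNAs. Against mt-Nd5 alone the groups overlapped, with a difference of -0.24 (exact permutation p = 0.30). Without doxycycline the order of the lines was the opposite, with 3.07 in shNS and 4.25 in shDis3l2, 1 library each.

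**Figure D4:**
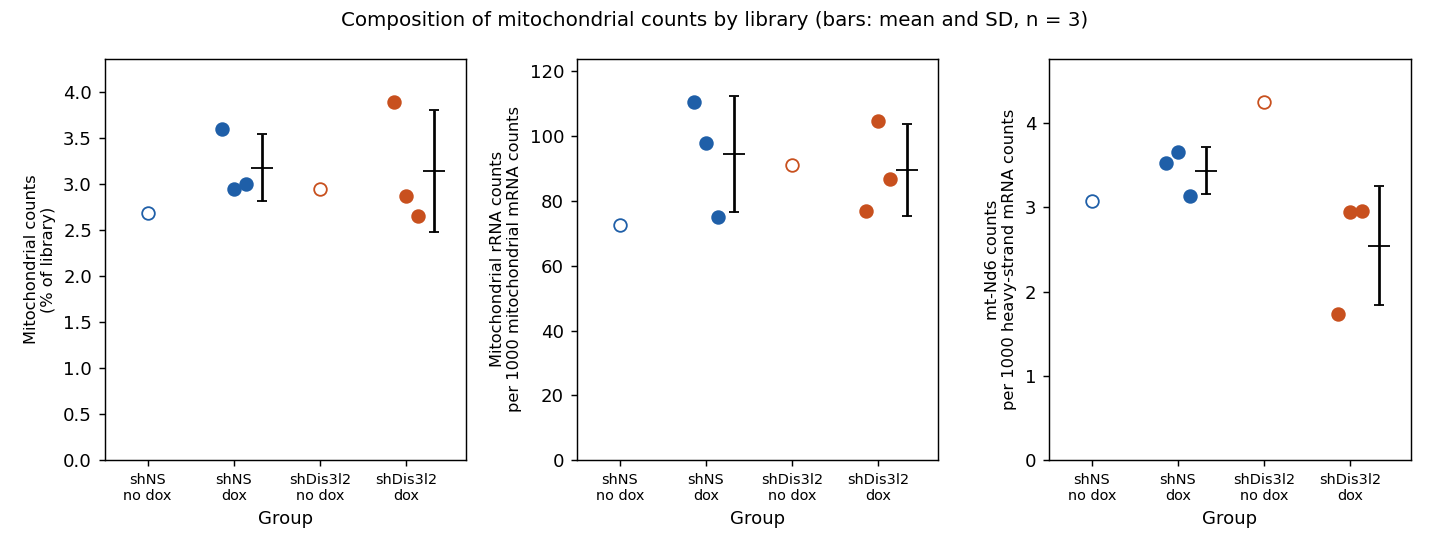
Mitochondrial counts as a percentage of each library (left), rRNA counts per 1000 mRNA counts (middle) and mt-Nd6 counts per 1000 heavy-strand mRNA counts (right), all from counts as deposited, for the 4 groups on the x axis. Points are libraries, open without doxycycline, and black bars are mean and SD (n = 3). In the right panel shDis3l2 with doxycycline lies at 1.73 to 2.96 and shNS with doxycycline at 3.13 to 3.66, while without doxycycline shDis3l2 is at 4.25 and shNS at 3.07.

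Without doxycycline the lines could be compared only as 1 library against 1, with no test. mt-Nd6 stood at 77.3 CPM in the shNS library against 110.6 CPM in the shDis3l2 library. The ratio was 1.43 (95% exact counting interval 1.364 to 1.501, counting error only). Both rRNAs were also higher in the shDis3l2 library, with ratios of 1.23 for mt-Rnr1 (1.213 to 1.247) and 1.38 for mt-Rnr2 (1.361 to 1.401). These are levels left after ribosomal RNA depletion, so the rRNA ratios cannot be read as differences in the cell. mt-Nd3 had the lowest ratio, 0.666 with its copy added (0.652 to 0.681), followed by mt-Nd5 at 0.821 (0.812 to 0.830). The median log2 ratio of the 15 members with copies added was -0.09, with 6 positive, against 0.01 over 13613 genes with a count in both.

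The effect of doxycycline was tested over both lines together with all 8 libraries, where the 2 lone untreated libraries were assumed to vary like the others. Averaged over the lines, 0 of 15 members and 0 of 15250 genes were called by edgeR. An unadjusted p under 0.05 was reached by 598 genes (3.92%) and 0 members. With DESeq2 60 genes and 0 members were called (2 members unadjusted), and with limma-voom 0 genes. A positive estimate was found for 14 of 15 members, with a median log2 fold change of 0.22 against 0.03 over all genes. Without shDis3l2 replicate 1 the median was 0.11, with 12 positive. The largest were mt-Nd3 at 0.55 (SE 0.27) and mt-Rnr1, counted after ribosomal RNA depletion, at 0.45 (SE 0.22), both with edgeR adjusted p = 0.957. The exception was mt-Nd6 at -0.14 (SE 0.12, edgeR adjusted p = 0.957).

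In each line alone edgeR also called 0 genes. Within shNS 4.24% of genes and 0 members had an unadjusted p under 0.05, and within shDis3l2 3.3% of genes and 1 member, mt-Nd6. Within shNS, all 3 doxycycline libraries lay above the untreated one for 12 of 15 members as deposited and 14 with copies added, against 23.8% of all genes. Within shDis3l2 this held for 3 members as deposited (mt-Nd2, mt-Nd3 and mt-Nd4) and 4 with copies added, against 29.4% of all genes. The members of a line share the same untreated library, so these are not independent counts, and the share in shNS was not tested. mt-Rnr1, again as left after depletion, was at 993 CPM in untreated shNS against 1388 to 1967 CPM with doxycycline. In shDis3l2 it was at 1221 CPM untreated against 1064 to 1647 CPM.

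mt-Nd6 was the member whose doxycycline effects had opposite signs in every library. It went from 77.3 CPM to 93.6 to 109 CPM in shNS (log2 fold change 0.39, SE 0.18, edgeR adjusted p = 0.990) and from 110.6 CPM to 65.2 to 73.6 CPM in shDis3l2 (-0.68, SE 0.17, edgeR adjusted p = 1). The difference of these effects was -1.07 on the log2 scale (SE 0.24). It had an unadjusted edgeR p of 0.00301 and did not pass adjustment over all genes (adjusted p = 1.00), where edgeR called 0 genes (577 or 3.78% unadjusted), DESeq2 34 and limma-voom 0. DESeq2's adjusted p for mt-Nd6 was 0.0644. mt-Nd6 was the only member with an unadjusted edgeR p under 0.05 for this difference, and 6.35% of all genes likewise had every shNS library above and every shDis3l2 library below its untreated library.

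The nuclear genes that transcribe, cut, modify, tail and degrade mitochondrial RNA were looked at as a list of 60, of which 59 were tested between the lines with doxycycline. Of these, 1 rose (2.13% of all genes tested did) and 0 fell by edgeR (4.01% did), with 7 at an unadjusted p under 0.05 (20.8% of all genes were). The median log2 fold change was 0.05, with 34 positive and 25 negative, against -0.0023 over all genes. Tfb2m, Lrpprc, Mtpap and Endog lay lower in shDis3l2 without overlap of the groups. Rpusd4, Rexo2, Mto1, Polg, Pus1, Dhx30, Eral1, Mrm1 and Mgme1 lay higher without overlap. Of the higher genes, Rpusd4, Rexo2, Mto1 and Dhx30 are on chromosome 9 and the rest are on other chromosomes. Qtrt1, also on chromosome 9, had overlapping groups. Whether location went with the difference was not tested. Over all genes tested, 14.6% lay lower and 13.2% higher without overlap. Mto1 did not pass (log2 fold change 0.63, SE 0.15, edgeR adjusted p = 0.0559). The 1 gene called was Rpusd4, a pseudouridine synthase that acts on mitochondrial rRNA (chromosome 9). It was at 35.5, 34.2 and 37.8 CPM in shNS and at 69.7, 55.3 and 59.2 CPM in shDis3l2, without overlap (log2 fold change 0.78, SE 0.13, edgeR adjusted p = 0.0187). Its call was lost without shDis3l2 replicate 2 or 3 (edgeR adjusted p = 0.0608 and 0.0681). It also differed without doxycycline, at 37.8 CPM in shNS and 56 CPM in shDis3l2.

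No gene of the core of mitochondrial transcription passed the test. Polrmt, the mitochondrial RNA polymerase, was at 31.8, 33.4 and 26.7 CPM in shNS and at 38.5, 33.4 and 32.7 CPM in shDis3l2 (log2 fold change 0.19, SE 0.14, edgeR adjusted p = 0.537). Tfam, which packs mitochondrial DNA and starts transcription, had a log2 fold change of -0.05 (SE 0.12) and the elongation factor Tefm 0.11 (SE 0.16). Tfb2m, the initiation factor that works with the polymerase, was at 28.7, 34.6 and 29.6 CPM in shNS and at 25.5, 24.4 and 24.9 CPM in shDis3l2. Its groups did not overlap, and the difference of -0.31 (SE 0.13) did not pass (edgeR adjusted p = 0.227, unadjusted p = 0.0453). Tfb2m was named after its values were seen. Lrpprc, which with Slirp stabilises heavy-strand mRNAs, was at 148, 186 and 154 CPM in shNS and at 111, 128 and 131 CPM in shDis3l2. These groups did not overlap, but the difference of -0.40 (SE 0.15) did not pass (edgeR adjusted p = 0.177). Slirp had a log2 fold change of -0.09 (SE 0.13).

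The enzymes of mitochondrial RNA decay and tailing gave the following. Pnpt1, the exoribonuclease that with the helicase Supv3l1 degrades light-strand and other mitochondrial RNA, was at 55, 64.4 and 60.1 CPM in shNS and at 72.2, 62.4 and 68.2 CPM in shDis3l2 (log2 fold change 0.18, SE 0.12, edgeR adjusted p = 0.487). Supv3l1 had a log2 fold change of 0.05 (SE 0.13). The poly(A) polymerase Mtpap was at 48.5, 45.7 and 46.3 CPM against 30.6, 39.9 and 40.7 CPM, without overlap (-0.34, SE 0.15, edgeR adjusted p = 0.250). Rexo2, which degrades short RNA fragments (chromosome 9), was at 63.9, 78.4 and 76 CPM against 127, 102 and 103 CPM, without overlap, and did not pass (0.61, SE 0.15, edgeR adjusted p = 0.0589). For the average doxycycline effect 0 of 60 genes in the list were called by edgeR, with 0 at an unadjusted p under 0.05 and a median of -0.02.

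The nuclear subunits of the same respiratory complexes gave 80 tested genes, of which 4 rose and 1 fell between the lines, where 2.13% of all genes rose and 4.01% fell. The median log2 fold change was -0.02. They were Cox5a (0.67), Cox7a2 (0.71), Atp5l (0.65) and Atp5j2 (0.99), the first 3 on chromosome 9, and Ndufv3 (-0.78), with edgeR adjusted p from 0.0234 to 0.0471; these names were chosen after their values were seen. For the average doxycycline effect 76 of 81 had a positive estimate with a median of 0.17, against 0.03 over all genes, and 0 were called by edgeR (1 at an unadjusted p under 0.05). By line, 56 of 81 were positive in shNS (median 0.05, against 0.01 over all genes). In shDis3l2 it was 75 of 81 (median 0.26, against 0.004). All rest on the same untreated library of each line, so these are not independent counts, and the share was not tested.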

How the data were processed

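Per the labels' protocols, total RNA of RAW264.7 shRNA lines was made into 8 libraries with a stranded kit that depletes ribosomal RNA and sequenced as 150 nt pairs. Tools listed in the submitters' processing notes are STAR 2.7, RSEM and cutadapt, with builds GRCm38 and mm10. The authors deposited expected counts per gene, not normalized. Neither annotation release nor strand setting is given in the sources used here. All 55450 identifiers matched GENCODE M21.

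Counts were rounded to whole numbers. Genes passed filterByExpr (minimum count 10), libraries were scaled by TMM, and edgeR's quasi-likelihood test (robust, two-sided, edgeR 4.0.16, R 4.3.3) was adjusted over all genes by Benjamini-Hochberg at 0.05. The line comparison used 6 libraries and the doxycycline contrasts 8. Alternatives were DESeq2 1.42.0, limma-voom (limma 3.58.1) and other scalings, filters and samples. Nuclear copies were found by shared 100-base windows of GENCODE transcripts, an alternative added after the data were seen. Single values used exact permutation tests (scipy 1.17.1). The test was tried on simulated data. All members were to be named, and lists and members were chosen with earlier results of these data known. Intervals and floors of 3 counts cover counting error only.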

Additional observations from a re-analysis of the deposited data

Results flagged for a closer look

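mt-Nd6 was flagged because doxycycline went with opposite changes in the 2 lines in every library. Of all genes tested, 6.35% showed the same pattern. The log2 change of mt-Nd6 from the untreated library was 0.39 in shNS (3 of 3 libraries higher) and -0.68 in shDis3l2 (3 of 3 libraries lower). Each line has 1 untreated library, and the difference between the changes did not pass edgeR's adjustment over all genes (unadjusted p = 0.00301, adjusted p = 1.00).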

How the results depend on the processing

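The differences between lines in mitochondrial share, in rRNA to mRNA and in mt-Nd6 to heavy-strand mRNA moved by less than the larger of the 2 groups' SDs under each alternative run, but not all held: without one library the share ranged from -0.42 to 0.21 percentage points, the rRNA log2 ratio from -0.23 to 0.05 and the mt-Nd6 log2 ratio from -0.60 to -0.22 (the last without shDis3l2 replicate 1). No ratio of tRNA to mRNA could be computed because 21 of 22 tRNA rows had 0 counts. Of mitochondrial genes between the lines, 1 was called by edgeR as described, by DESeq2, limma-voom, DESeq2's size factors in edgeR and the 1 CPM filter, and 0 with library size alone, scaling without mitochondrial rows, no low-count filter, all 8 libraries, nuclear copies added or the replicate block, and 0 to 0 without any one library. Over all genes the 845 calls became 1748 with DESeq2, 421 with the replicate block, and 203 to 1157 without one library. Replicate numbers did not pair the libraries: same-numbered deviations correlated at -0.12, 0.02 and -0.01 across genes. For the average doxycycline effect, 0 calls became 60 with DESeq2 and 0 to 166 without one library, the 166 without shNS replicate 2. For the difference of the effects, 0 became 34 with DESeq2, 2 with no low-count filter and 0 to 121 without one library, the 121 without shNS replicate 2.

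Of 240 log2 fold changes of the 15 members between lines, 208 kept direction and call, 12 (all mt-Nd6) lost the call and 20, none called, changed sign. The cause was not tested. Leaving out one library gave -0.29 to 0.37 for mt-Atp6, -0.37 to 0.018 for mt-Co1, -0.27 to 0.21 for mt-Cytb, -0.29 to 0.075 for mt-Nd1, -0.27 to 0.0083 for mt-Nd2, -0.35 to 0.18 for mt-Nd3, -0.31 to 0.10 for mt-Nd4l and -0.24 to 0.15 for mt-Rnr2. mt-Atp6 was at -0.051 with nuclear copies added, mt-Cytb at -0.020 by limma-voom and -0.016 in the replicate block, and mt-Nd3 at 0.014 with library size alone and 0.011 with no low-count filter. For doxycycline, mt-Co1 ranged from -0.0085 to 0.18 and mt-Nd1 from -0.011 to 0.17 without one library.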
